A study of Homo sapiens with 9 samples.

Results

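The 46 genes described here build, desaturate, elongate, take up, activate and store fatty acids. They were listed by name for these roles, with earlier results of these data known. All 46 were found in the deposited table of 27315 genes. Of these, 45 had a mean high enough to be tested, and only MLXIPL, at a normalised count of 3.14 to 14 per library, did not. The cells were MDA-MB-468, an established line of human triple-negative breast cancer. They had been infected with lentivirus carrying a pLKO.1 hairpin and then selected with a drug, and every group shares this treatment. The labels' protocol names puromycin at 2 µg/ml and, for vectors with other markers, hygromycin or blasticidin; pLKO.1 commonly carries puromycin resistance. The 9 libraries form 3 groups of 3: a control group (ctl), which the study design gives as a scrambled hairpin, and the hairpins sh1 and sh6 against BBOX1. BBOX1 encodes gamma-butyrobetaine hydroxylase, the enzyme of the last step of carnitine synthesis, and carnitine carries long-chain fatty acids into mitochondria. The labels' protocols give target sequences for hairpins called sh1 and sh2, and no label says which sequence sh6 carries.

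Cells make fatty acids in the cytosol from acetyl-CoA, which ATP-citrate lyase (ACLY) releases from citrate and ACSS2 makes from acetate. Acetyl-CoA carboxylase (ACACA, ACACB) and fatty acid synthase (FASN) turn it into palmitate, which desaturases and elongases then modify. Acyl-CoA synthetases activate the free acids, acyltransferases join them to glycerol, and lipases release them from lipid droplets. Many of these genes are known targets of SREBP-1, a transcription factor made by SREBF1 and held back by INSIG proteins when sterols are plentiful.

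Recovered depths ran from 15726903 to 19731400 reads per library, and replicate libraries correlated across genes with r of 0.995 to 0.998. BBOX1 itself had a normalised count of 2360 to 2785 in the control libraries, 324 to 346 with sh1 and 581 to 618 with sh6, so the 3 ranges did not overlap. On the deposited log2 scale it fell by 2.76 with sh1 (adjusted p = 3.7e-25) and fell by 2.01 with sh6 (adjusted p = 6.2e-22, limma). The sources do not state separate cultures for the 3 libraries within a group, and p-values therefore reflect the spread among these libraries alone, which may be technical. All 7 epithelial and MDA-MB-468 markers (EPCAM, EGFR and 5 keratins) were tested in full, with summed counts of 161211 to 181761 per library, and of the receptor genes PGR was at 0 in every library. The other 2 of that list were detected: ESR1 had 211 to 253 counts in the controls, 226 to 255 with sh1 and 96.9 to 116 with sh6, and ERBB2 had 1074 to 1116, 745 to 763 and 579 to 640. None of the 6 adipocyte markers had a mean high enough to test: ADIPOQ was at 0 throughout, and the list summed to 9.83 to 33.5 counts per library. The 6 fibroblast markers summed to 286 to 444 counts per library. Most of it was COL1A1, the only 1 tested, at 374 ± 58.4 in the controls, 304 ± 31.4 with sh1 and 332 ± 43.8 with sh6 (SD, n = 3).

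Counts in this text are normalised counts recovered from the deposited values, and folds are ratios of their group means. Log2 changes are differences on the deposited scale, which understates changes of low genes. A gene is called at an adjusted p under 0.05 in limma over 13165 genes. Both hairpin comparisons share the same 3 control libraries.

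Taken as a set, the 45 tested genes moved in both directions and their medians lay near 0. With sh1, 17 fell and 15 rose, where 30.0% and 29.0% of all genes tested did so. With sh6, 19 fell and 17 rose, against 33.6% and 34.2% of all genes. The median log2 change was -0.07 with sh1 and -0.05 with sh6, beside 0 and 0.01 over all genes. Across both hairpins 13 fell with each and 11 rose with each, which is 28.9% and 24.4% of the members tested, against 19.4% and 18.9% of all genes. Among these, 4 fell and 6 rose 1.5-fold or more under each of the hairpins, 8.89% and 13.3% of the members, where 5.70% and 5.19% of all genes did. The 4 that fell were SCD, FADS1, CD36 and ACSL1, and the 6 that rose were SCD5, FADS3, ELOVL4, FABP5, SLC27A4 and AGPAT3. Of these, CD36 had a mean high enough to be tested only through its control libraries. Another 5 were called in opposite directions with the 2 hairpins (11.1%, against 6.40% of all genes). The counts by role below are small and are descriptions, to be read against these shares over all genes.

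**Figure D1:**
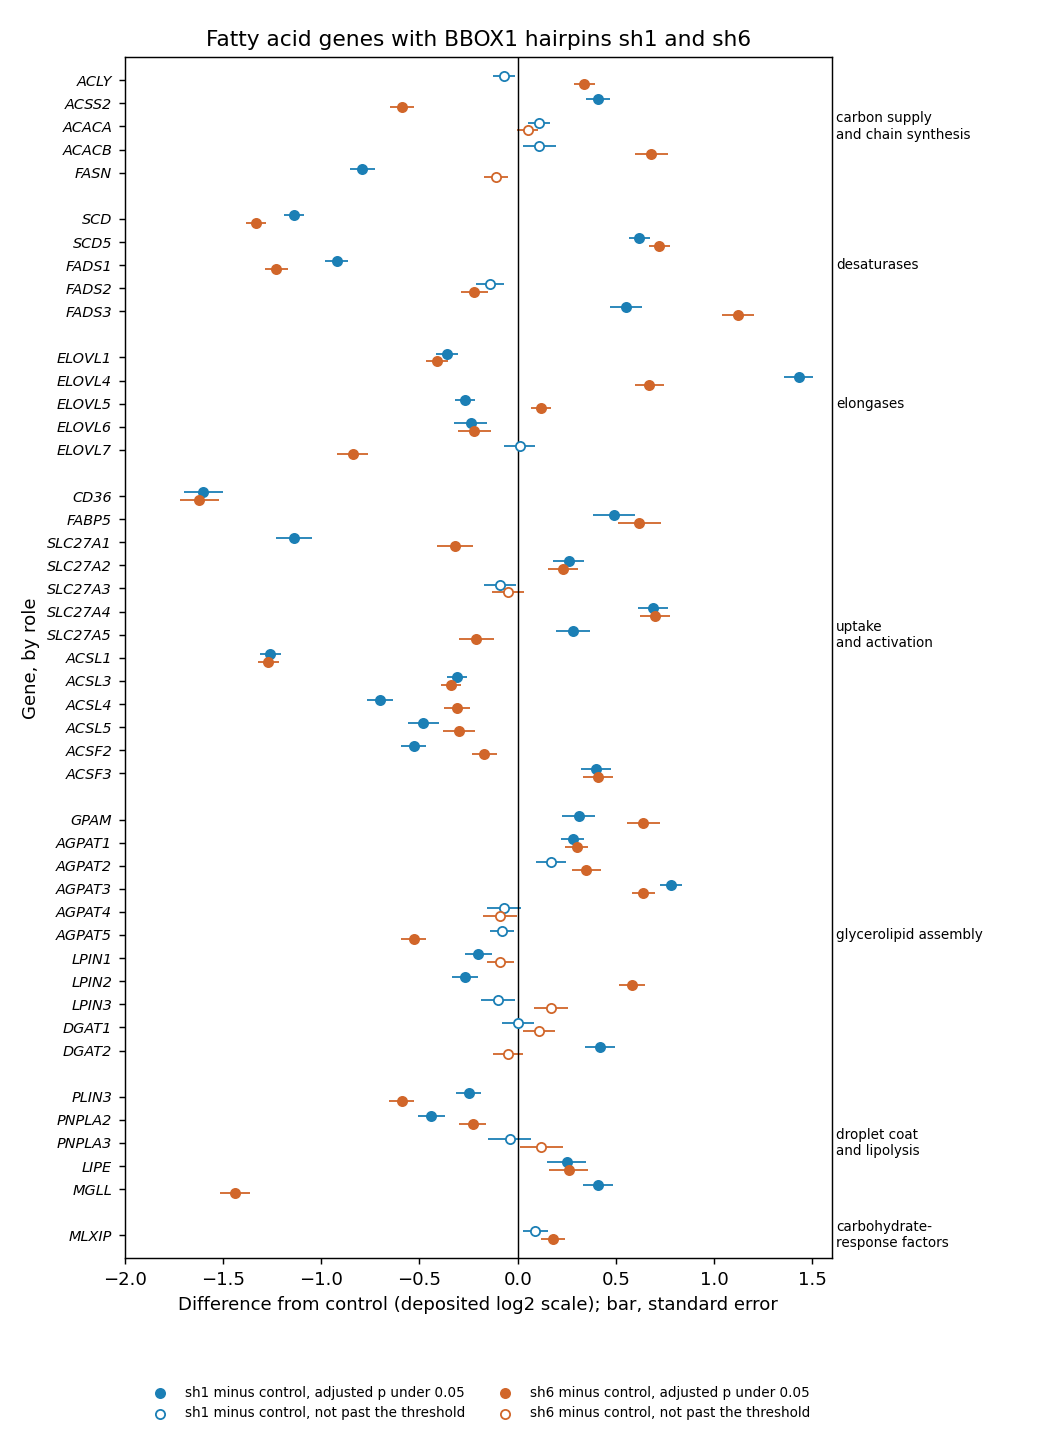
Difference of each tested gene from the control on the deposited log2 scale (x axis), by role (y axis), with sh1 in blue and sh6 in orange. Bars are standard errors from the limma fit, which pools the spread of a gene over all 3 groups. Filled points passed an adjusted p under 0.05 in limma and open points did not. SCD, FADS1, CD36 and ACSL1 lie far to the left with both hairpins, and MGLL lies at 0.41 with sh1 and -1.44 with sh6.

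Of the 5 desaturases 2 fell and 2 rose with both hairpins, where 19.4% and 18.9% of all genes did. These enzymes place double bonds in fatty acyl-CoA: SCD and SCD5 make oleate and palmitoleate, and FADS1 and FADS2 act on polyunsaturated chains, while FADS3 is a related protein. FADS1, FADS2 and FADS3 follow each other as neighbouring protein-coding genes on chromosome 11. SCD, FADS1, SCD5 and FADS3 each have 1 start in the RefSeq promoter table, and because the first 2 fell together and the last 2 rose together, the 250 bases before each start are shown. They were read on the gene's own strand, 5′ to 3′, from GRCh38.p14, which is not the authors' build. Capitals mark the letters CCAAT and GGGCGG on either strand (ATTGG and CCGCCC on the other one), 2 motifs that are known as sites of NF-Y and SP1.
SCD, plus strand, chr10:100346983-100347232: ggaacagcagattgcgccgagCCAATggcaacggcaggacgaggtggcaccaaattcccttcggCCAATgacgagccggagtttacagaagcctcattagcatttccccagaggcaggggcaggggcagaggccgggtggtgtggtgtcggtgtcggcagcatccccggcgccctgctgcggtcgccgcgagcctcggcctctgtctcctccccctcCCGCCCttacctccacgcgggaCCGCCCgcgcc
FADS1, minus strand, chr11:61817004-61817253: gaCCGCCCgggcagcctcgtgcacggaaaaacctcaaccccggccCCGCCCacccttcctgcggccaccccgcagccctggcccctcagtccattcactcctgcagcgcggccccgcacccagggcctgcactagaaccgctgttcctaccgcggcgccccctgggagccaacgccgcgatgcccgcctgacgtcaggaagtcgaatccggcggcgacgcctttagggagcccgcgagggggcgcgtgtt
SCD5, minus strand, chr4:82798797-82799046: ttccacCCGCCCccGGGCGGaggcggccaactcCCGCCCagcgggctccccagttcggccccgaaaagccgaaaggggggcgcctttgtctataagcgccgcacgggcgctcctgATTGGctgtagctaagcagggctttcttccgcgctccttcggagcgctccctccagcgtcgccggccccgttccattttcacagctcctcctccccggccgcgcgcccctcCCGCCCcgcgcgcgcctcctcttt
FADS3, minus strand, chr11:61891546-61891795: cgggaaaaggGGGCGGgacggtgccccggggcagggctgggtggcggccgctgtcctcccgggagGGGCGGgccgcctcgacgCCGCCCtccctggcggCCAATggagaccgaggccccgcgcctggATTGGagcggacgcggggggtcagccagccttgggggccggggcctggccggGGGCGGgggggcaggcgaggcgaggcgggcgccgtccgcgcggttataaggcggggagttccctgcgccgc

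Both SCD and FADS3 have 2 CCAAT matches in these bases and SCD5 has 1, while FADS1 has none. Motif matches were not tested against the changes. CCAAT stood in 45.3% of the 64 promoter windows of 38 members in the table, against 34.6% of all 35116 windows of 300 bases, and GGGCGG in 60.9% against 45%. The letters TCACNCCA, a core of the sterol response element, stood in windows of 3 members (ACSL1, PLIN3 and PNPLA2), 4.69% of member windows against 3.95% of all. The E-box CANNTG was in 64.1% of member windows against 68.7% of all. Its form CACGTG, which CANNTG contains, was in 6.25% against 7.26%, in ACSF2, ELOVL4, ELOVL5 and LPIN2. FASN, FABP5, AGPAT5, LPIN3, DGAT1, DGAT2, PNPLA3 and MGLL have no entry in the table.

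SCD, the main stearoyl-CoA desaturase, had normalised counts of 20654, 21328 and 20761 in the control libraries. It had 9775, 9299 and 9300 with sh1 and 8704, 8125 and 8036 with sh6. Every hairpin library lay below every control, and the sh6 libraries lay below those of sh1. SCD fell 2.21-fold with sh1 (log2 change -1.14, SE 0.0511, adjusted p = 2.9e-18) and 2.52-fold with sh6 (log2 change -1.33, adjusted p = 3.6e-20, limma), and was lower with sh6 than with sh1 (adjusted p = 0.00198). SCD5, the second human stearoyl-CoA desaturase, went the other way, from 1110, 1137 and 1128 to 1746, 1784 and 1762 with sh1 and 1910, 1917 and 1870 with sh6. It rose 1.57-fold (adjusted p = 2e-11) and 1.69-fold (adjusted p = 3.8e-13). The difference SCD minus SCD5 within a library was 4.14 ± 0.014 (SD, n = 3) in the controls, 2.38 ± 0.0543 with sh1 and 2.09 ± 0.0554 with sh6. It was lower by 1.76 and 2.05 on the log2 scale than in the control, and the two-sided exact permutation test, with 3 libraries against 3, gave p = 0.1 for each, its smallest possible value. The pair was chosen with earlier results known.

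FADS1, the delta-5 desaturase of arachidonate synthesis, had 2274, 2331 and 2145 counts in the controls. With sh1 it had 1152, 1116 and 1201, and with sh6 960, 937 and 869, so all 6 hairpin libraries lay below all controls. It fell 1.95-fold with sh1 (adjusted p = 1.5e-14) and 2.44-fold with sh6 (adjusted p = 8.2e-18), and further with sh6 than with sh1 (adjusted p = 3.9e-05). FADS2, the delta-6 desaturase next to it, moved little: 754, 630 and 633 in the controls, 629, 582 and 602 with sh1, and 550, 550 and 603 with sh6. It fell 1.19-fold with sh6 (adjusted p = 0.00706) and did not pass with sh1 (log2 change -0.14, adjusted p = 0.0959). Both FADS2 results changed when single control libraries were left out. Without control replicate 1 the fall with sh6 was not called (adjusted p = 0.102), and without control replicate 2 or 3 the gene was called with sh1 (adjusted p = 0.0488 and 0.0445). FADS2 was also called lower with sh1 when all libraries were kept and sample weights used (log2 change -0.22, adjusted p = 0.00125, limma). FADS1 and FADS2 share an exonic stretch of 142 bases on opposite strands, and the sources used here do not give how strand was counted. FADS3 rose from 274, 242 and 230 to 354, 406 and 417 with sh1 and 685, 595 and 560 with sh6, with no overlap between any of the 3 groups. Its rise was 1.58-fold with sh1 (adjusted p = 6.6e-07) and 2.47-fold with sh6 (adjusted p = 1.7e-13).

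Of the 5 elongases, which add carbon units to long chains, 2 fell with both hairpins, 1 rose with both and 1 was called in opposite directions, where 19.4%, 18.9% and 6.40% of all genes did. ELOVL4, which makes very long chains, rose from 202, 218 and 184 counts to 662, 607 and 651 with sh1 and 336, 360 and 368 with sh6. The rise was 3.18-fold with sh1 (adjusted p = 1.1e-16) and 1.76-fold with sh6 (adjusted p = 2.4e-09), and the 2 hairpins differed from each other (adjusted p = 3.8e-10). ELOVL1, which elongates saturated chains, fell 1.29-fold and 1.34-fold, from 2057 ± 37.8 to 1594 ± 31.8 and 1539 ± 103 (SD, n = 3 each). ELOVL7 was called with sh6 and not with sh1: 287, 301 and 278 in the controls, 299, 290 and 287 with sh1 and 141, 127 and 141 with sh6. The sh6 libraries lay below all others, 2.12-fold under the control (adjusted p = 5.6e-11), while sh1 overlapped the controls (log2 change 0.01, adjusted p = 0.885). The test of sh6 against sh1 was also passed (adjusted p = 6.5e-11).

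ELOVL6, which extends palmitate to stearate, fell by 0.24 and 0.22 on the log2 scale (adjusted p = 0.0161 and 0.0226), although both hairpin ranges overlapped the controls of 322, 362 and 265. Those calls were lost without control replicate 1 (adjusted p = 0.0515 with sh1 and 0.0653 with sh6) or control replicate 2 (0.146 and 0.188). The call with sh1 was also lost without sh1 replicate 3 (0.0593), and that with sh6 without sh6 replicate 1 (0.0592) or 3 (0.0625). ELOVL5, which elongates polyunsaturated chains, had 5436, 5426 and 4925 counts in the controls, 4395, 4321 and 4368 with sh1 and 5635, 5787 and 5736 with sh6. It fell with sh1 (1.21-fold, adjusted p = 5.2e-05) and rose by 0.12 with sh6 (adjusted p = 0.04). Leaving out control replicate 3 (adjusted p = 0.204), sh1 replicate 1 (0.0538) or 3 (0.0551), or sh6 replicate 2 (0.108) or 3 (0.0783) ended the call of the small rise with sh6. The difference between the hairpins was called (log2 0.39, adjusted p = 1.5e-07).

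**Figure D2:**
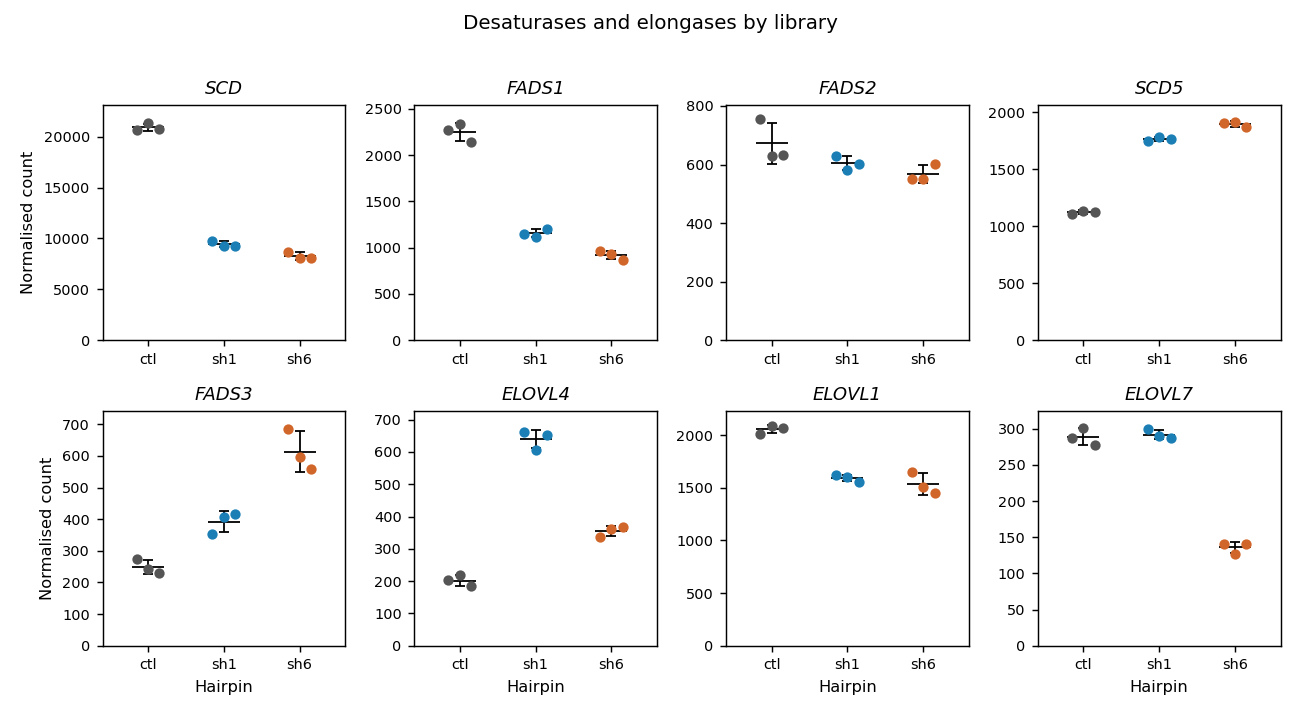
Normalised counts (y axis, from 0) of 5 desaturases and 3 elongases in the 3 control, 3 sh1 and 3 sh6 libraries (x axis). Points are libraries, lines are group means and bars 1 SD. SCD and FADS1 are lower in all 6 hairpin libraries, SCD5, FADS3 and ELOVL4 are higher in all 6, and ELOVL7 is low with sh6.

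Of the 5 genes of carbon supply and chain synthesis, 0 were called the same way with each hairpin (limma), and also 0 at an unadjusted p under 0.05. Over all genes 19.4% fell and 18.9% rose with both, so 0 among so few genes says little about the group. FASN, the multi-step enzyme that makes palmitate, had 18423, 16666 and 19365 counts in the controls, 10462, 10345 and 10626 with sh1 and 18904, 15582 and 16047 with sh6. The sh1 libraries lay below all others and those of sh6 overlapped the controls. FASN fell 1.73-fold with sh1 (log2 change -0.79, SE 0.0624, adjusted p = 3e-12) and did not pass with sh6 (log2 change -0.11, SE 0.0624, adjusted p = 0.119). The hairpins differed from each other (log2 0.68, adjusted p = 9.8e-11). With sh6, FASN was called lower without control replicate 2 (log2 change -0.17, adjusted p = 0.0181) or without sh6 replicate 1 (log2 change -0.20, adjusted p = 0.00499), the highest of the 3 sh6 libraries. It was also called lower with sh6 when all libraries were kept and sample weights used (log2 change -0.18, adjusted p = 9.1e-04, limma).

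ACSS2, the cytosolic acetyl-CoA synthetase, went in opposite directions. Its counts were 1002, 938 and 975 in the controls, 1346, 1290 and 1309 with sh1 and 674, 594 and 611 with sh6, and no 2 groups overlapped. It rose 1.35-fold with sh1 (adjusted p = 9.2e-07) and fell 1.55-fold with sh6 (adjusted p = 8.2e-10). ACLY rose 1.27-fold with sh6 (6565, 6304 and 6337 against 5013, 4673 and 5441, adjusted p = 2.3e-06) and did not pass with sh1 (log2 change -0.07, adjusted p = 0.274). ACACB, the carboxylase isoform at the mitochondrial membrane, had 194, 180 and 234 counts in the controls, 222, 207 and 240 with sh1 and 390, 353 and 330 with sh6. Only the sh6 libraries stood above the controls, by 1.76-fold (adjusted p = 3.8e-08). ACACA, the cytosolic isoform, did not pass with either hairpin (log2 changes 0.11 and 0.05, adjusted p = 0.0877 and 0.44). Without control replicate 3 it was called with sh1 (adjusted p = 0.0451), as it was with sample weights (0.0114). The same call appeared after shifting samples to 1 median (0.0483) or after quantile normalization (0.00998).

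Of the 13 genes of uptake and activation 7 fell with both hairpins, 4 rose with both and 1 was called in opposite directions, where 19.4%, 18.9% and 6.40% of all genes did. CD36, a scavenger receptor that also takes up fatty acids, had 121, 104 and 115 counts in the controls. It had 9.47, 8.25 and 14.1 with sh1 and 8.53, 10.3 and 11.2 with sh6, all far below the controls and overlapping each other. The count ratio was 10.7-fold lower with sh1 and 11.3-fold lower with sh6, while the deposited scale compresses the change of so low a gene to -1.6 and -1.62 (adjusted p = 1.3e-14 and 6.2e-15, limma). Every hairpin library lay under the count of 16.2 that matches the filter on the mean, so CD36 was tested only through its control libraries. Its folds are ratios to counts near the floor and are imprecise. CD36 is also known in endothelial cells and macrophages. In the controls the 4 endothelial markers summed to 237 to 267 counts, against 86.2 to 116 in sh1 libraries and 88.4 to 111 in sh6 libraries, most of it KDR (227 ± 19.2, 82.8 ± 12.6 and 87 ± 12.5; SD, n = 3). PECAM1, too low to be tested, had 20.2 to 27.7 counts in the controls, 5.02 to 7.94 with sh1 and 2.13 to 8.21 with sh6. The other endothelial markers, also too low to be tested, did not both fall. CDH5 had 2.64 to 4.14 counts in the controls, 4.1 to 7.94 with sh1 and 3.65 to 6.38 with sh6. VWF had 1.02 to 2.07 in the controls, 2.01 to 2.98 with sh1 and 0 to 1.06 with sh6. Among the leucocyte markers CD3E and LYZ had at most 1.83 counts, PTPRC at most 5.02, and CD68 made up nearly all of a sum of 197 to 225, 73.6 to 91.6 and 131 to 138. The part of these genes in the CD36 result was not tested. In bulk RNA, fewer cells of a type and less RNA per cell cannot be told apart.

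ACSL1, a long-chain acyl-CoA synthetase of the endoplasmic reticulum and mitochondrial surface, fell with both hairpins. Its counts were 4653, 4974 and 4867 in the controls, 1990, 1914 and 2026 with sh1 and 1982, 1999 and 1899 with sh6. That is 2.44-fold lower with sh1 (SE of the log2 change 0.0526, adjusted p = 4.8e-19) and 2.47-fold lower with sh6 (adjusted p = 2.2e-19). The hairpin groups overlapped each other, and their difference was -0.01 on the log2 scale with an SE of 0.0526 (adjusted p = 0.862). The other 3 ACSL genes also fell with both. ACSL4, which prefers arachidonate and other polyunsaturated acids, went from 1103, 1266 and 1017 counts to 688, 671 and 640 with sh1 and 867, 904 and 915 with sh6. It was 1.69-fold lower with sh1 and 1.26-fold lower with sh6 (adjusted p = 1.9e-10 and 0.00017), and sh6 stood above sh1 (adjusted p = 8.7e-06). ACSL5 was at 253, 278 and 257 in the controls, 157, 190 and 172 with sh1 and 197, 204 and 205 with sh6, falls of 1.52-fold and 1.30-fold (adjusted p = 7.7e-06 and 0.00151). ACSL3, linked to lipid droplet formation, fell 1.24-fold and 1.27-fold from 3979 ± 130 (SD, n = 3; adjusted p = 6.2e-06 and 7.5e-07).

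The 2 ACSF genes, mitochondrial acyl-CoA synthetases, went apart. ACSF2, for medium chains, was at 1113, 1130 and 1125 counts in the controls, 777, 783 and 720 with sh1 and 1097, 964 and 923 with sh6. It fell 1.48-fold with sh1 (adjusted p = 2.4e-08) and 1.13-fold with sh6 (adjusted p = 0.0212), but the call with sh6 was lost without sh6 replicate 2 (adjusted p = 0.0792) or 3 (0.132). ACSF3, which activates malonate, rose 1.4-fold and 1.41-fold, from 243 ± 17.4 to 340 ± 9.61 and 344 ± 25.9 (SD, n = 3 each; adjusted p = 3.8e-05 and 2e-05).

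SLC27 genes encode fatty acid transport proteins, most of which also activate acyl chains. SLC27A1 had 551, 653 and 587 counts in the controls, 234, 251 and 226 with sh1 and 581, 447 and 382 with sh6. The sh1 libraries lay far below all controls, whereas the sh6 libraries spread into the control range. The fall was 2.52-fold with sh1 (adjusted p = 4.3e-12) and 1.27-fold with sh6 (adjusted p = 0.00271), and the latter was lost without sh6 replicate 3 (log2 change -0.20, adjusted p = 0.0553). SLC27A4, the transport protein of gut epithelium and skin, rose from 297, 272 and 357 to 522, 545 and 526 with sh1 and 553, 516 and 539 with sh6. That was 1.72-fold and 1.74-fold (adjusted p = 4.1e-09 and 1.9e-09), with all 6 hairpin libraries above all controls.

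SLC27A2 rose 1.24-fold and 1.22-fold (adjusted p = 0.00506 and 0.0094). With sh6 that call was lost without control replicate 1 (adjusted p = 0.0511) or sh6 replicate 1 (0.067). SLC27A5, the bile acid and very-long-chain enzyme of liver, was at 109, 110 and 115 in the controls, 133, 149 and 161 with sh1 and 95.6, 88.3 and 85.3 with sh6. It was called higher with sh1 (1.32-fold, adjusted p = 0.00617) and lower with sh6 (1.24-fold, adjusted p = 0.0372). The fall with sh6 was not called without control replicate 1 (adjusted p = 0.0579), 2 (0.0574) or 3 (0.0848), without sh6 replicate 2 (0.0839) or 3 (0.102), or after median shifting (0.0678) or quantile normalization (0.118). SLC27A3 did not pass with either hairpin (log2 changes -0.09 and -0.05). FABP5, a cytosolic fatty acid-binding protein, was low, at 12.5, 20.7 and 23 counts in the controls, 30.8, 42.2 and 52.6 with sh1 and 53.6, 48 and 45.6 with sh6. It was 2.24-fold and 2.62-fold higher (adjusted p = 0.00028 and 1e-05), but GENCODE 29 lists 13 numbered FABP5 pseudogenes that can share its reads, so its level is uncertain.

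**Figure D3:**
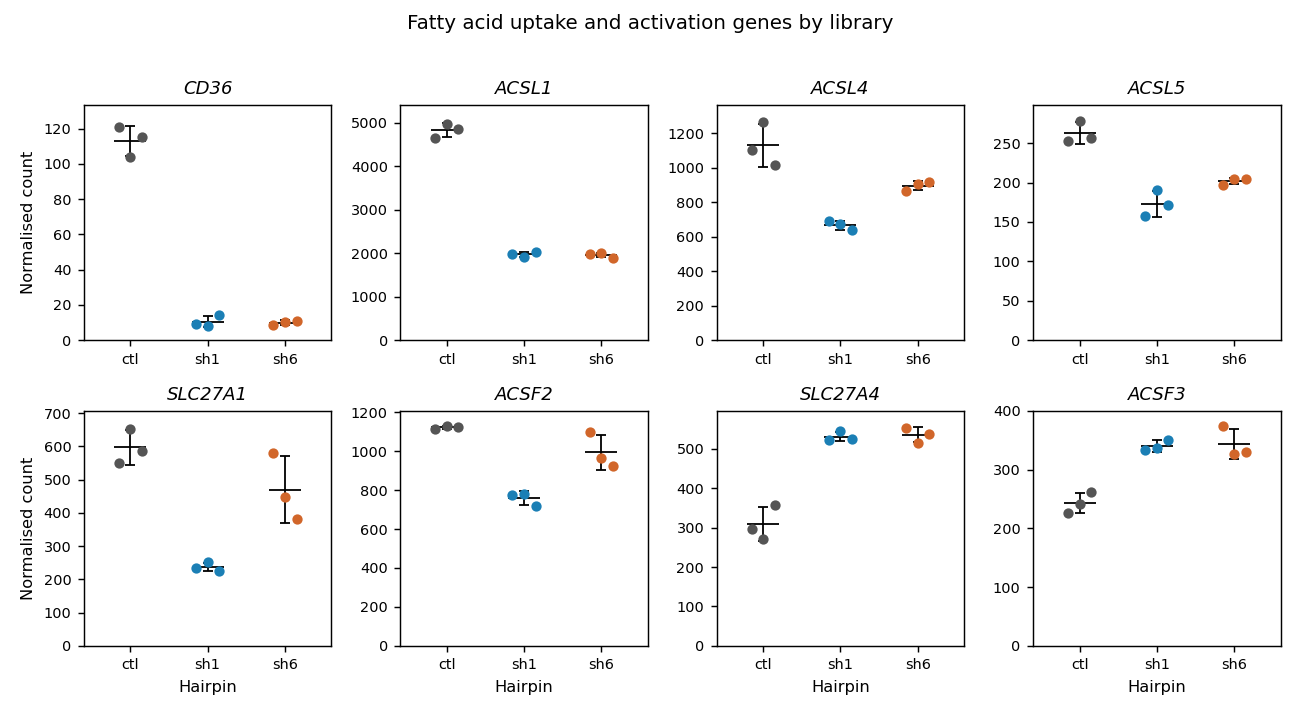
Normalised counts (y axis, from 0) of 8 uptake and activation genes in the 3 libraries of each group (x axis). Points are libraries, lines are means and bars 1 SD. CD36 and ACSL1 are low in all 6 hairpin libraries, SLC27A1 and ACSF2 are lowest with sh1, and SLC27A4 and ACSF3 are higher with both.

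In glycerolipid assembly AGPAT3, GPAM and AGPAT1 rose with both hairpins, 3 of 11 genes where 18.9% of all genes did. The number that fell with both was 0 (limma; also 0 at an unadjusted p under 0.05), where 19.4% of all genes did. These enzymes add acyl chains to glycerol 3-phosphate (GPAM), make phosphatidate (AGPAT1 to AGPAT5), remove its phosphate (LPIN1 to LPIN3) and add the last chain of triacylglycerol (DGAT1, DGAT2). AGPAT3 rose from 1567, 1437 and 1513 counts to 2740, 2483 and 2652 with sh1 and 2437, 2259 and 2446 with sh6. That was 1.74-fold and 1.58-fold (adjusted p = 4e-13 and 2.2e-11), with every hairpin library above every control. GPAM, which starts the pathway at mitochondria, rose from 200, 252 and 253 to 319, 287 and 307 with sh1 and 371, 375 and 446 with sh6, 1.29-fold and 1.69-fold (adjusted p = 0.00217 and 9.1e-08). AGPAT1 rose 1.22-fold and 1.24-fold from 2337 ± 55.2 (SD, n = 3; adjusted p = 0.0002 and 5.4e-05), and its exons share up to 325 bases with an opposite-strand transcript. Longer stretches of this kind lie in LPIN3 (617 bases), DGAT2 (423) and, outside this group, PLIN3 (432). AGPAT2, the form lost in a congenital lipodystrophy, rose with sh6 (1.31-fold, adjusted p = 0.00014) and just missed the threshold with sh1 (log2 change 0.17, adjusted p = 0.0503). With sh1 it was called under 10 of 21 alternatives, among them fits without control replicate 1 (adjusted p = 0.0173), control replicate 3 (0.0403), sh6 replicate 1 (0.0343) or sh6 replicate 3 (0.045), with a replicate block (0.0338), and after median shifting (0.0283) or quantile normalization (0.034).

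The lipins and DGAT genes differed by hairpin. LPIN2 had 582, 586 and 618 counts in the controls, 502, 473 and 470 with sh1 and 998, 873 and 897 with sh6, and no 2 groups overlapped. It fell 1.24-fold with sh1 (adjusted p = 0.00067) and rose 1.55-fold with sh6 (adjusted p = 4.7e-09). DGAT2 rose 1.43-fold with sh1 (303, 286 and 279 against 203, 196 and 207, adjusted p = 2.4e-05). With sh6 it stood at 192, 192 and 194 and was not called (adjusted p = 0.556). AGPAT5 fell 1.47-fold with sh6 (adjusted p = 9e-09) and did not pass with sh1 (adjusted p = 0.286). LPIN1 fell 1.16-fold with sh1 (adjusted p = 0.014), a call lost without sh1 replicate 3 (0.124), and was not called with sh6 (adjusted p = 0.258). AGPAT4 and DGAT1 passed with neither hairpin. LPIN3 passed with neither either, although without sh6 replicate 3 it was called higher with sh6 (log2 change 0.24, adjusted p = 0.0294), as it was with sample weights (adjusted p = 0.0075).

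Among the droplet and lipolysis genes MGLL showed the largest difference between the hairpins of any member. MGLL encodes monoacylglycerol lipase, which frees the last acyl chain from glycerol. Its counts were 397, 471 and 415 in the controls, 578, 605 and 571 with sh1 and 132, 113 and 121 with sh6, and no 2 groups overlapped. It rose 1.37-fold with sh1 (adjusted p = 3.9e-05) and fell 3.50-fold with sh6 (adjusted p = 1.6e-16), a difference of -1.84 between sh6 and sh1 (adjusted p = 7e-19, limma). PLIN3, a coat protein of nascent droplets, fell with both, from 1476, 1491 and 1732 to 1270, 1317 and 1336 with sh1 and 1085, 1005 and 958 with sh6. The falls were 1.20-fold and 1.54-fold (adjusted p = 0.00136 and 1.4e-09).

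PNPLA2, the adipose triglyceride lipase that takes the first chain, fell 1.38-fold with sh1 and 1.18-fold with sh6 from 1289 ± 82 (SD, n = 3; adjusted p = 2.7e-06 and 0.00496), the latter lost without sh6 replicate 2 (0.0702). LIPE, hormone-sensitive lipase, was low (30 to 44.1 counts in the controls) and was called higher by 1.4-fold and 1.42-fold (adjusted p = 0.032 and 0.0234). Its call with sh1 was lost without control replicate 1 (adjusted p = 0.148) or 3 (0.064) or sh1 replicate 2 (0.104) or 3 (0.0568). With sh6 it was lost without control replicate 1 (0.118) or sh6 replicate 1 (0.0704) or 3 (0.068). PNPLA3 did not pass with either hairpin (31.8 to 58.1 counts in all libraries), although without control replicate 3, its highest library, it was called higher with sh6 (log2 change 0.26, adjusted p = 0.0365). MLXIP, a glucose-responsive transcription factor, rose 1.15-fold with sh6 (adjusted p = 0.0113), a call lost without sh6 replicate 1 (0.0649).

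**Figure D4:**
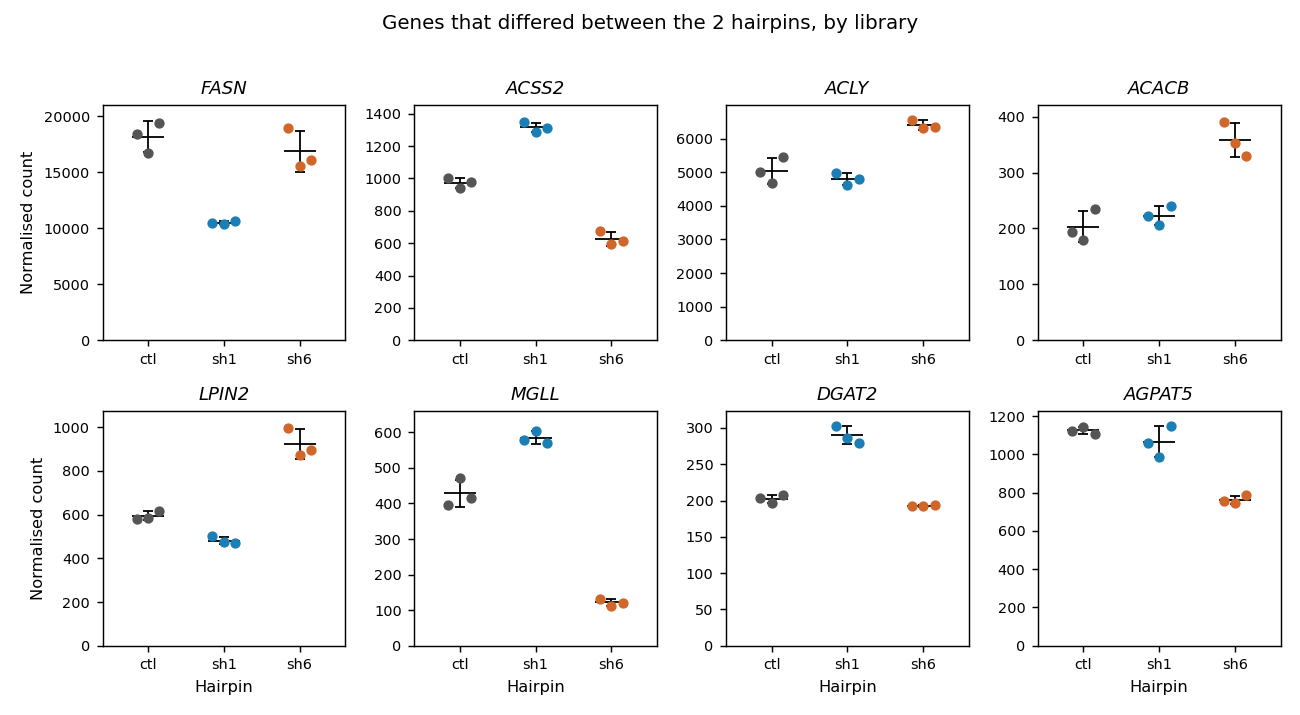
Normalised counts (y axis, from 0) of 8 genes that differed between sh1 and sh6, in the 3 libraries of each group (x axis). Points are libraries, lines are means and bars 1 SD. FASN lies below all controls with sh1 only. ACSS2 and MGLL are above the controls with sh1 and below them with sh6, and LPIN2 shows the reverse.

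Tested directly against sh1, sh6 had 11 members lower and 13 higher, 24.4% and 28.9% of those tested, where 28.9% and 30.8% of all genes differed. The chain synthesis genes stood higher with sh6 in 3 of 5 cases (FASN, ACLY and ACACB) and lower in 1 (ACSS2). The smallest of these calls did not hold everywhere. AGPAT2 was not called between the hairpins without sh1 replicate 1 (adjusted p = 0.0822), 2 (0.0595) or 3 (0.115) or sh6 replicate 1 (0.233) or 2 (0.0564). AGPAT3 was not called without sh1 replicate 1 (0.173) or 3 (0.103) or sh6 replicate 2 (0.189). LPIN3 was not called without sh1 replicate 1 (0.0758) or sh6 replicate 1 (0.0572), and PNPLA2 not without sh6 replicate 1 (0.124). ACSL5 was called higher with sh6 than with sh1 without sh1 replicate 2 (0.0348), with sample weights (0.0181), after quantile normalization (0.017) and with a variance prior without a mean trend (0.0333).

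Regulators and partners of the pathway were read from lists of 107 further genes, of which 80 were tested, 22 fell with both hairpins and 13 rose with both. The shares over all genes, 19.4% lower and 18.9% higher with both, stand behind this count and those of the single lists that follow, of which none was tested as a set. Of 18 tested transcriptional regulators 5 fell with both and 2 rose. SREBF1 had 1495, 1504 and 1578 counts in the controls, 1173, 1200 and 1172 with sh1 and 961, 789 and 760 with sh6, each group below the one before it. It fell 1.29-fold with sh1 (adjusted p = 3.8e-05) and 1.82-fold with sh6 (adjusted p = 2.7e-12). INSIG1, itself a known SREBP target, was at 2246, 2355 and 1894, then 607, 623 and 603 with sh1 and 940, 865 and 852 with sh6. Its fall was thus 3.54-fold with sh1 and 2.44-fold with sh6 (adjusted p = 9.5e-20 and 2.9e-16), so INSIG1 and FASN were lower with sh1 than with sh6 while SREBF1, SCD and FADS1 were lower with sh6. For INSIG1 and SREBF1 that difference had an adjusted p of 2.4e-07 and 3.5e-07. INSIG2 also fell with both, by 0.43 and 0.65 on the log2 scale, as did PPARD, by 0.17 and 0.65. The smaller PPARD call, with sh1, was lost without control replicate 1 (adjusted p = 0.0505) or sh1 replicate 3 (0.149), and after quantile normalization (0.0541). SREBF2, the sterol-pathway factor, fell by 0.18 with sh1 (adjusted p = 0.00772, lost without control replicate 1 at 0.0533 and after quantile normalization at 0.197). With sh6 it did not pass (log2 change 0.10, adjusted p = 0.121; 0.0472 after median shifting). MLX, the binding partner of MLXIP, rose 1.15-fold with sh1 (adjusted p = 0.00876; 0.0654 without control replicate 1) and fell 2.33-fold with sh6 (adjusted p = 5.3e-16). MID1IP1, an activator of acetyl-CoA carboxylase, passed with neither (log2 change 0.08 with each).

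Of 8 enzymes that supply citrate and NADPH 5 fell and 1 rose with sh1, where 30.0% and 29.0% of all genes did. With sh6 2 fell and 3 rose, where 33.6% and 34.2% did. Against sh1, sh6 was higher in 6 of 8, where 30.8% of all genes were, and the difference between these counts was not tested. IDH1, the cytosolic isocitrate dehydrogenase, fell 2.82-fold and 2.19-fold and PGD, of the pentose phosphate route, by 0.49 and 0.45 on the log2 scale, while TKT rose 1.18-fold and 1.48-fold. Of 9 partners of elongation and desaturation, 5 fell with both and 2 rose, beside 19.4% and 18.9% of all genes. The ketoacyl reductase HSD17B12 fell by 0.73 and 0.67 and the dehydratase HACD2 by 0.36 and 0.45 on the log2 scale, while ELOVL2 rose 1.66-fold and 1.43-fold. HACD1 was called higher by 1.55-fold and 1.71-fold at 31.5 ± 6.63 control counts (SD, n = 3), with sh1 not without control replicate 1 (adjusted p = 0.062) or 3 (0.0578) or sh1 replicate 3 (0.147).

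Of 14 phospholipid remodelling genes 4 fell with both and 4 rose with both, beside 19.4% and 18.9% of all genes. LPGAT1, a lysophospholipid acyltransferase, rose from 1194, 1320 and 1287 counts to 4719, 4504 and 4832 with sh1 and 2865, 2997 and 3104 with sh6, 3.70-fold and 2.36-fold (adjusted p = 8.5e-23 and 3.3e-18). LPCAT1 rose 1.34-fold and 1.6-fold, whereas LPCAT2 fell by 0.87 and 1.01 and CEPT1 by 0.35 and 1.08 on the log2 scale. CDS1 rose 1.39-fold with sh1 and fell by 0.26 with sh6. Of 13 other glycerolipid and droplet genes 5 fell with both, among them the lysosomal lipase LIPA (by 0.83 and 1.07), PLPP3 (by 0.76 and 0.49) and HILPDA (by 0.46 and 0.39), and 3 rose, among them GPAT3 (2.44-fold and 1.56-fold). BSCL2, which encodes seipin, fell by 0.23 with sh1 and rose 1.31-fold with sh6. Of 10 other activation, binding and thioesterase genes 1 fell with both, the acyl-CoA-binding protein DBI (by 0.82 and 0.98), and 1 rose, ACOT7 (1.73-fold and 1.6-fold). ACSS1 rose by 0.41 with sh1 (1.77-fold) and fell by 0.28 with sh6, the latter not without sh6 replicate 3 (adjusted p = 0.0652). The 8 genes of mitochondrial fatty acid synthesis held no shared call, although OXSM was lower with both at an unadjusted p under 0.05. With sh6 4 fell and 0 rose (also 4 and 0 unadjusted), where 33.6% and 34.2% of all genes did, and 6 of 8 were lower with sh6 than with sh1, where 28.9% of all genes were. LIAS, lipoyl synthase, fell by 0.33 with sh6 (adjusted p = 0.00357) and was called higher by 0.22 with sh1 (adjusted p = 0.0487), a call that leaving out control replicate 1 (0.13) or 3 (0.152), any sh1 library (0.0895 to 0.102) or sh6 replicate 2 (0.052) ended.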

How the data were processed

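Polyadenylated RNA of 9 MDA-MB-468 samples was read from both ends over 100 bases, per the labels' protocols. For the authors' own processing the submitters' processing notes list hg19 and the tools STAR, Salmon, cutadapt and DESeq2, without versions or order. The authors deposited log2-like values of a variance-stabilising transformation, which the table's name calls batch-corrected. The deposited table also gives 1 adjusted p-value and 1 log2 ratio per gene from the authors, and which samples they compare is not stated. In the authors' deposited table SCD has -1.24 and SCD5 0.7.

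The transformation was inverted in closed form from its floor of 5.02. Of recovered values between 0.5 and 20.5 reads, 76.6% to 80.4% per library were whole within 0.05. Depths and read-based values are therefore estimates. Genes with a mean at least 1 above the floor (a count of 16.2) were kept, 13165 in all. limma 3.58.1 (R 4.3.3; lmFit, eBayes with a mean trend, two-sided) was fitted to the deposited values of all samples as 3 groups without a block, with Benjamini-Hochberg adjustment over all genes kept. A further 27 rows carry dates in place of symbols and are not named.

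The members and lists were chosen with earlier results of these data known. Sample values are given for members called with both hairpins and changed at least 1.5-fold with 1 of them, called in opposite directions, or called between hairpins at 1.5-fold. Other pathway lists give up to 4 genes called with both hairpins, by mean change, and up to 2 called in opposite directions; some of these are not reported here. BBOX1, SREBF1, SREBF2, INSIG1 and MID1IP1 are always named. ACLY, FADS2, ELOVL1, ELOVL5 and other members with values outside this rule complete the account of the 46. Promoters are RefSeq's (GRCh38.p14), and exon overlap is from GENCODE 29. Of the members, 15 share exonic bases with an opposite-strand gene: ACLY, FADS1, FADS2, FABP5, SLC27A1, SLC27A5, ACSL5, ACSF3, AGPAT1, LPIN2, LPIN3, DGAT1, DGAT2, PLIN3 and PNPLA2. Their reads cannot be assigned by strand here. Alternatives were other filters, scalings, variance priors, weights, thresholds, a count scale, voom, a replicate block and leaving out each sample. Python 3.11.15 with numpy 2.4.6, pandas 2.3.3 and matplotlib 3.10.9 did the rest.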

Additional observations from a re-analysis of the deposited data

Results flagged for a closer look

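The 5 members called in opposite directions with the 2 hairpins, for which sh6 against sh1 was also called in limma, call for a closer look. The difference of sh6 minus sh1 was -1.84 on the log2 scale for MGLL, -1 for ACSS2, 0.86 for LPIN2, -0.49 for SLC27A5 and 0.39 for ELOVL5. All 3 libraries of each hairpin lay on their own side of all controls in these 5 genes. The difference of sh6 minus sh1 does not use the controls, but its p-value does, because the fit estimates spread from all 3 groups.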

How the results depend on the processing

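Over 21 alternatives, counts of called members stayed within 1.5 times their main value, except members called in opposite directions. Those were 5, and 3 without a filter on low values, with only the 2 groups compared in the fit, and at an adjusted p under 0.01. With 1 library left out they numbered 3 to 5. SLC27A5 and ELOVL5 lost their call with sh6 in those 3 settings, while ACSS2, LPIN2 and MGLL kept both calls at an adjusted p under 0.01. With 1 library left out, members falling with both hairpins numbered 10 to 14 and those rising with both 10 to 11. With the replicate number as a block 13 fell and 12 rose with both. The numbers do not pair the samples by the labels, and deviations of same-numbered libraries correlated at -0.13 to 0.18, with 3 of 9 pairs over 0.1. Of 4641 values of single genes under an alternative, 103 lost their call, 36 gained one and 0 called values changed sign, while 47 uncalled values changed sign. Shifting each library to 1 median gave a median change over all genes of 0.019 with sh1 and 0.031 with sh6. Depth limits most the low-count members MLXIPL, PNPLA3, LIPE and FABP5, and CD36 in the hairpin libraries.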
